A study of Mus musculus with 6 samples.

Results

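The genes described here are 10 secreted factors that act on blood vessels, epithelium or other tissue: Vegfa, Vegfb, Angpt1, Pdgfb, Fgf2, Hgf, Igf1, Tgfb1, Grn and Hdgf. They were taken by symbol from a count table of 21606 genes, and all 10 had a row. RNA was counted in bone marrow cells of wild-type mice of the inbred strain C57BL/6, taken for their high aldehyde dehydrogenase activity, the property used to sort a progenitor-rich fraction called ALDHbr. There were 3 libraries from male mice and 3 from female mice, and the labels give neither the age of the mice nor any treatment. Nothing in the labels ties the replicates to separate animals, so each p-value measures the spread between libraries only, which may be technical.

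Angiogenic factors are proteins that cells release to make neighbouring vessels sprout, ripen or persist. Vascular endothelial growth factors start the sprouting, angiopoietin 1 and platelet-derived growth factor B help to stabilise the new vessel wall, and hepatocyte, insulin-like and fibroblast growth factors act on epithelial and stromal cells as well. Transforming growth factor beta 1, progranulin and hepatoma-derived growth factor are made by many cell types, blood cells among them.

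Total counts ran from 679724 to 880074 in the male libraries and from 1199551 to 1475224 in the female ones, so the male libraries together held 0.605 times as many counts. Levels are given as normalised CPM, counts per 1000000 counts after scaling each library by TMM, a method that evens out differences in composition. Xist, the RNA of the inactive X chromosome, had 0 to 2 counts in the male libraries and 225 to 297 in the female ones, while Ddx3y, a Y-linked gene, had 51 to 81 and 0. All 8 markers of immature myeloid and progenitor cells were counted in every library. Their summed level was 13847 to 14871 CPM in males and 15438 to 16103 CPM in females. Mpo, Prtn3, Elane and Ctsg supplied 45235, 18378, 14707 and 10591 of the 95909 counts of this list, while Kit supplied 455. The 7 endothelial markers with a row summed to 127 to 145 CPM in males and 108 to 137 CPM in females, and Pecam1 and Egfl7 supplied 484 and 240 of their 795 counts, while Cdh5 and Cldn5 had 5 and 0 counts in males and 15 and 3 in females. Of the 1537 counts of the macrophage list Csf1r supplied 1413, and Nkg7 supplied 905 of the 915 counts of the lymphocyte list (T and natural killer cells). Lung epithelial, stromal and megakaryocyte markers were counted in every library too, and their levels are given beside Angpt1.

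The promoters of 4 of the genes are shown because they go with different depths in the count table. Hdgf and Tgfb1 had at least 83 counts in every library, Hgf had 1 to 9 and Fgf2 had 0 or 1. Sequences are those of RefSeq (GRCm38.p6), 250 bases before to 50 after an annotated start, read along the gene's strand. Capitals mark the GC box GGGCGG, the motif bound by SP1 and its relatives, on either strand (CCGCCC on the other).
Hdgf (chr3:87906071-87906370, plus strand): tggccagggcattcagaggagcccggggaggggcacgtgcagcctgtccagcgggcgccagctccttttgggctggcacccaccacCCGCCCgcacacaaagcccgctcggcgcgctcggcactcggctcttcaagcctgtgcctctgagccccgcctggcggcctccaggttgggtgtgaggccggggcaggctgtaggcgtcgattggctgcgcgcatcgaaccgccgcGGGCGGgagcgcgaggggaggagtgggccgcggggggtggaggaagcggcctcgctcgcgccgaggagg
Tgfb1 (chr7:25686752-25687051, plus strand): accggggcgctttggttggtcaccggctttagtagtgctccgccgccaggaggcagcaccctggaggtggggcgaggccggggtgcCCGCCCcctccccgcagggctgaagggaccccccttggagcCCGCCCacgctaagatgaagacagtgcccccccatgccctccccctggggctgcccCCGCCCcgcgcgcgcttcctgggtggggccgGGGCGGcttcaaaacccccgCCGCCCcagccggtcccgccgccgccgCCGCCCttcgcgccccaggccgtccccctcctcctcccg
Hgf (chr5:16553245-16553544, plus strand): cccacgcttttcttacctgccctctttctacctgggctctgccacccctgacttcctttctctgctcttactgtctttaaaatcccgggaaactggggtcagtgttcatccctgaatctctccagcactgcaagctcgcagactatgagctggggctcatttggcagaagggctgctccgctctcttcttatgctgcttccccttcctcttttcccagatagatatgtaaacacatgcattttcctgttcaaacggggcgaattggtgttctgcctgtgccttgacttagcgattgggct
Fgf2 (chr3:37348403-37348702, plus strand): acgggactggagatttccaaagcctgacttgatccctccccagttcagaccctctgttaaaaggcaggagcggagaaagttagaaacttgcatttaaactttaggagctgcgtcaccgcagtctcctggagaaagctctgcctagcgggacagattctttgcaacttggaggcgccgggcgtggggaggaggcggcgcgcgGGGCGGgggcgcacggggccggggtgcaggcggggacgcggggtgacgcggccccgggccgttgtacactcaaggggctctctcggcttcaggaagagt
Windows were found for 8 of the 10 genes. The Tgfb1 window held 6 GC boxes and was 77.0% G or C, and that of Hdgf held 2 boxes at 74.0%. The Hgf window held 0 boxes at 51.3%, near the median of 52.7% over all 32851 windows in the RefSeq table, of which 35.7% held at least 1 box. Fgf2, which was barely counted, had a G and C share of 62.7% and 1 box. The first Vegfa window (chr17:46032328-46032627) held 2 boxes and that of Vegfb (chr19:6987602-6987901) 4, while those of Grn and Igf1 held 1 and 0. TATA boxes (TATAAA on either strand) were found in 0 of these windows and in 13.6% of all windows. These matches describe letters only.

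Detection was uneven. Of the 10 genes, 6 had enough counts to be tested between the sexes (Hdgf, Grn, Tgfb1, Vegfb, Angpt1 and Vegfa), and 4 did not (Hgf, Igf1, Pdgfb and Fgf2). Library by library, the 10 genes took between 0.131% and 0.150% of the counts of a male library and between 0.136% and 0.152% of those of a female one. Hdgf alone supplied 61.6% to 67.1% of these counts in males and 59.98% to 65.96% in females. At least 1 count was found for 9, 9 and 7 of the 10 genes in male replicates 1 to 3, and for 9 in each female library.

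**Figure D1:**
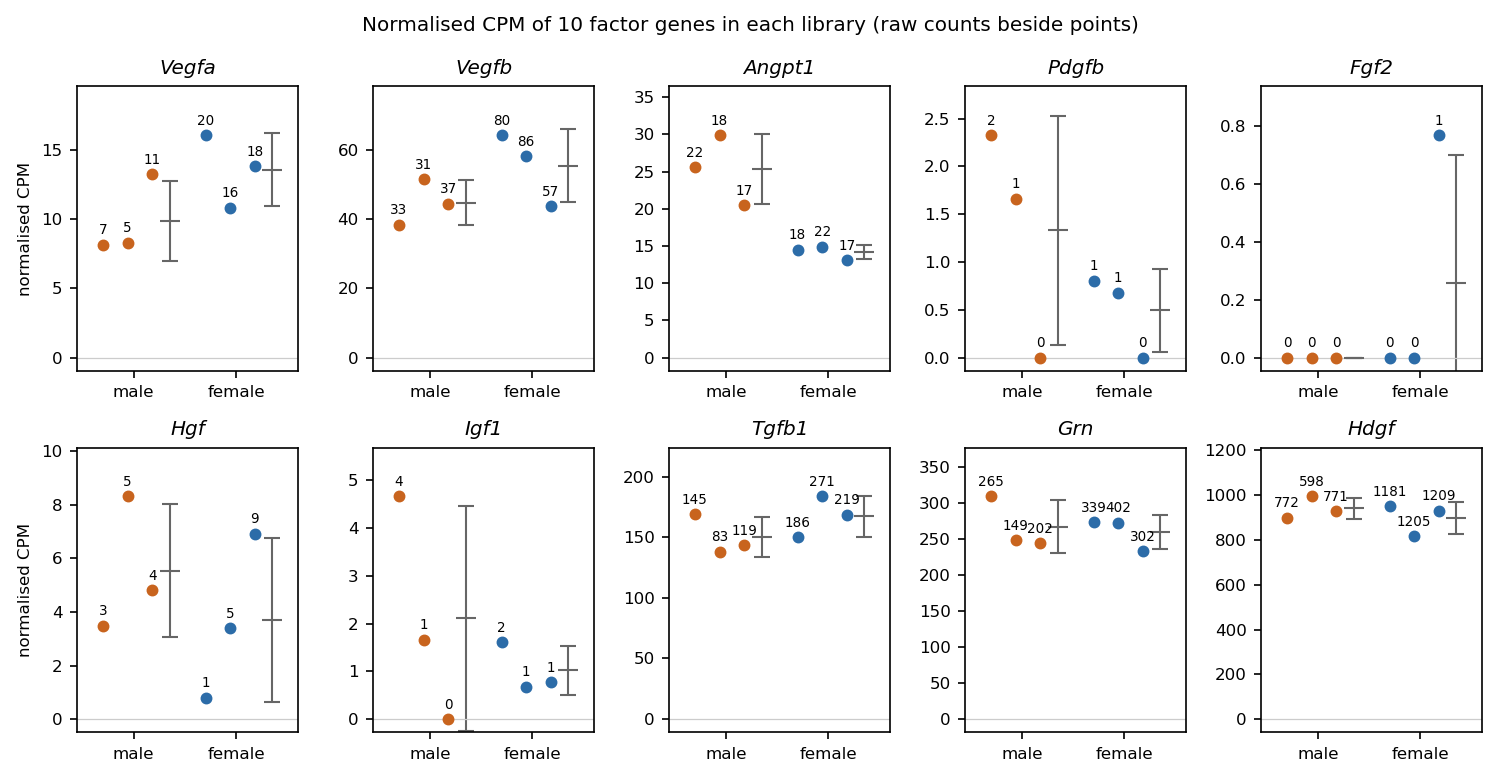
Normalised CPM of each of the 10 factor genes (vertical axis, from 0, a scale per panel) in the 3 male libraries (orange, left) and the 3 female libraries (blue, right); bars give the mean and SD over 3 libraries and the numbers are raw counts. Male and female points overlap in 9 panels, and in the Angpt1 panel the male libraries, at 20.5 to 29.9 CPM, lie above the female ones, at 13.1 to 14.9 CPM.

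None of the 6 tested genes passed the test of male against female cells (the quasi-likelihood test of edgeR with Benjamini-Hochberg adjustment over 8460 genes at 0.05). Over all tested genes the same rule called 0.579%, with 0.426% higher and 0.154% lower in males. At an unadjusted p under 0.05, 1 of the 6 was reached, Angpt1, by edgeR, by DESeq2 and by limma-voom alike, which reached 11.3%, 5.9% and 11.0% of all tested genes. For genes higher in males, as Angpt1 was, the share was 6.83% by edgeR. DESeq2 and limma-voom also called 0 of the 6 after adjustment, where each called 0.485% of all tested genes. As a description, the median log2 fold change of the 6, male minus female, was -0.054 and 3 of the 6 lay above 0. Over all 8460 tested genes the median was -0.003 and 4175 lay above 0. Vegfa, below 0, entered the test through the females. The coefficient of variation between libraries of a sex beyond counting error, estimated by edgeR as 1 value for all tested genes, was 0.102.

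**Figure D2:**
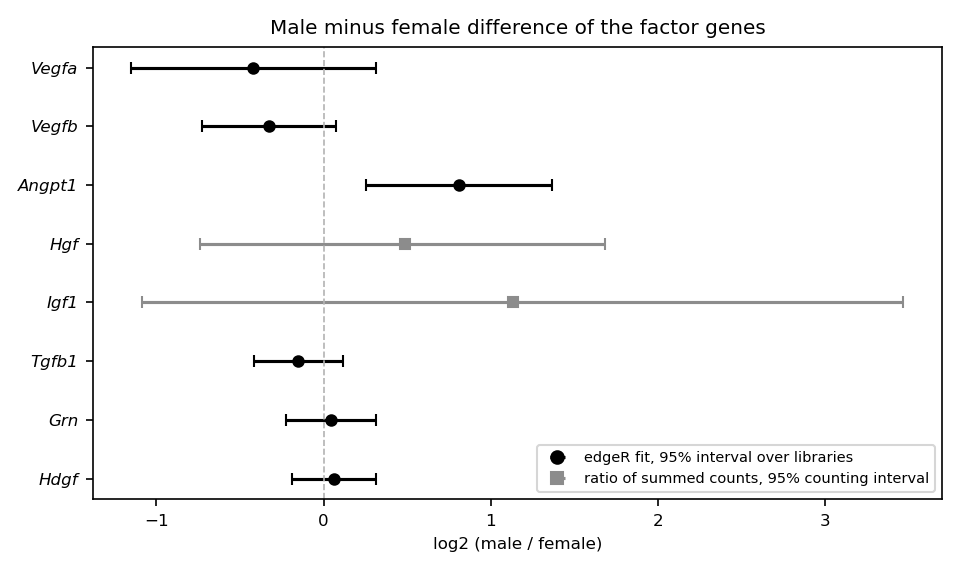
Male over female difference on the log2 scale (horizontal axis) for 8 factor genes. Circles are edgeR fold changes with 95% intervals over libraries for the 6 tested genes, and squares are ratios of summed counts with 95% counting intervals for Hgf and Igf1. The Angpt1 interval, 0.25 to 1.37, lies above 0 and the others span it.

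The vascular endothelial growth factors were counted at low to moderate depth and did not pass. Vegfa, the main driver of vessel sprouting (chromosome 17, 46016993 to 46032369, minus strand, GRCm38), had 7, 5 and 11 counts in males and 20, 16 and 18 in females. Per library this came to 8.15, 8.32 and 13.3 CPM in males against 16.1, 10.8 and 13.9 CPM in females. Male replicates 1 and 2 were the lowest, and male replicate 3 lay within the female range. The log2 fold change was -0.42 ± 0.35 (SE; 95% interval -1.15 to 0.31; adjusted p = 0.715 by edgeR). Vegfa reached the depth filter in all 3 female libraries and in 1 male library, so it entered the test through the females, and the sign of its fold change supports nothing. Vegfb, a relative that binds the receptor FLT1 (chromosome 19, 6982473 to 6987651, minus strand), had 33, 31 and 37 counts in males and 80, 86 and 57 in females. Its levels were 44.9 ± 6.56 CPM in males and 55.5 ± 10.6 CPM in females (SD, n = 3 each). Male replicates 2 and 3, at 51.6 and 44.6 CPM, lay above female replicate 3, at 43.9 CPM, so the groups overlapped (log2 fold change -0.33 ± 0.19, adjusted p = 0.553 by edgeR).

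Relatives and most receptors of these factors were sparse, while the coreceptor Nrp1 and the oxygen-sensing genes were deep enough to test. The receptors Kdr and Flt1, through which these ligands act on endothelium, had 2 and 10 counts in males and 4 and 12 in females (these receptors were singled out after their values were seen, as were Tek, Tie1, Angpt2, Fgfr1 and the untested relatives). The relatives Vegfc, Vegfd and Pgf had 5 to 11 counts each in all libraries together. Of the 5 receptors and coreceptors with a row only Nrp1, the coreceptor neuropilin 1, was tested: it had 38.5 ± 6.58 CPM in males and 35.3 ± 3.82 CPM in females, a log2 fold change of 0.13 ± 0.21. Of the 7 genes of the oxygen-sensing route that controls Vegfa, 6 were tested and 0 passed. Egln1, a prolyl hydroxylase that marks HIF proteins for breakdown in the presence of oxygen, had 96.0 ± 13.4 CPM in males and 94.8 ± 4.36 CPM in females. Hif1a, the gene of the oxygen-regulated subunit itself, had 36.04 ± 1.91 CPM in males and 42.5 ± 6.52 CPM in females (adjusted p = 0.706 by edgeR).

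Angpt1, which encodes angiopoietin 1, the activating ligand of the endothelial receptor TEK, was the gene whose sexes stood furthest apart among the 6 tested. It lies on chromosome 15 (42424723 to 42676977, minus strand, GRCm38). Raw counts were 22, 18 and 17 in male replicates 1 to 3 and 18, 22 and 17 in the female ones, 57 in each sex. Against the smaller male libraries this gave 25.6, 29.9 and 20.5 CPM in males and 14.5, 14.9 and 13.1 CPM in females. All 3 male libraries lay above all 3 female ones, as they did for 7.57% of all tested genes. The log2 fold change was 0.81 ± 0.27 (SE; 95% interval 0.25 to 1.37; unadjusted p = 0.00637, adjusted p = 0.225 by edgeR), which did not pass, and the adjusted p ranged from 0.181 to 0.647 over the alternatives. With each library left out in turn the fold change stayed between 0.70 and 0.95. In a bulk sample, more cells of a type and more RNA per cell cannot be told apart.

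Raw counts at least as high in males as in females, as for Angpt1, were found for 83 of 8460 tested genes, or 0.981%. This cut was set after the Angpt1 counts were seen. It restates the size of the Angpt1 fold change and adds no support to it. Some lists of markers of other cell types also had raw counts that did not follow the library totals. The 7 lung epithelial markers with a row, counted here although the cells are of marrow, had 221, 297 and 202 counts in the male libraries and 271, 292 and 206 in the female ones. Their summed level was 257, 494 and 243 CPM in males and 218, 198 and 159 CPM in females. The pooled library from which these counts come also held lung samples that are not analysed here. Passage of reads between samples of the pool was not tested. Among the lung markers, Sftpc had 88, 133 and 80 counts in males and 110, 108 and 68 in females. Counts of this size or smaller are therefore not shown to come from the marrow cells. These include the counts of Vegfa, Vegfb, Angpt1, Hgf, Igf1, Pdgfb and Fgf2, and of partner genes such as Nrp1. All 7 lung markers were counted, 6 were tested with all 6 fold changes above 0 (median 0.76), and 0 passed. At an unadjusted p under 0.05, edgeR reached 4 of these 6, where 6.83% of all tested genes were higher in males at that level. The lowest was that of Sftpc (unadjusted p = 0.000571, adjusted p = 0.0724 by edgeR), below that of Angpt1. Sftpd, among these 4, had 13, 19 and 12 counts in males and 13, 14 and 8 in females. It entered the test through the males, so its sign supports nothing. The 8 megakaryocyte and platelet markers, cells known to hold angiopoietin 1, summed to 40.8, 121 and 112 CPM in males and 33.0, 29.8 and 31.6 CPM in females, and 1 of them was tested and rose (Pf4, log2 fold change 1.92, adjusted p = 0.00107 by edgeR, and 1.68 with 0.0576 without male replicate 3). Gp1bb, a platelet receptor gene, had 1 and 0 counts. The 7 stromal markers with a row summed to 107, 253 and 121 CPM in males and 108, 79.3 and 75.4 CPM in females. Of them 4 were tested and 0 passed, and Pdgfrb, among the 4, entered the test through the males. The 4 fold changes were above 0 (median 0.80), and edgeR reached an unadjusted p under 0.05 for 3 of them. The part of these lists in the Angpt1 difference was not tested.

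**Figure D3:**
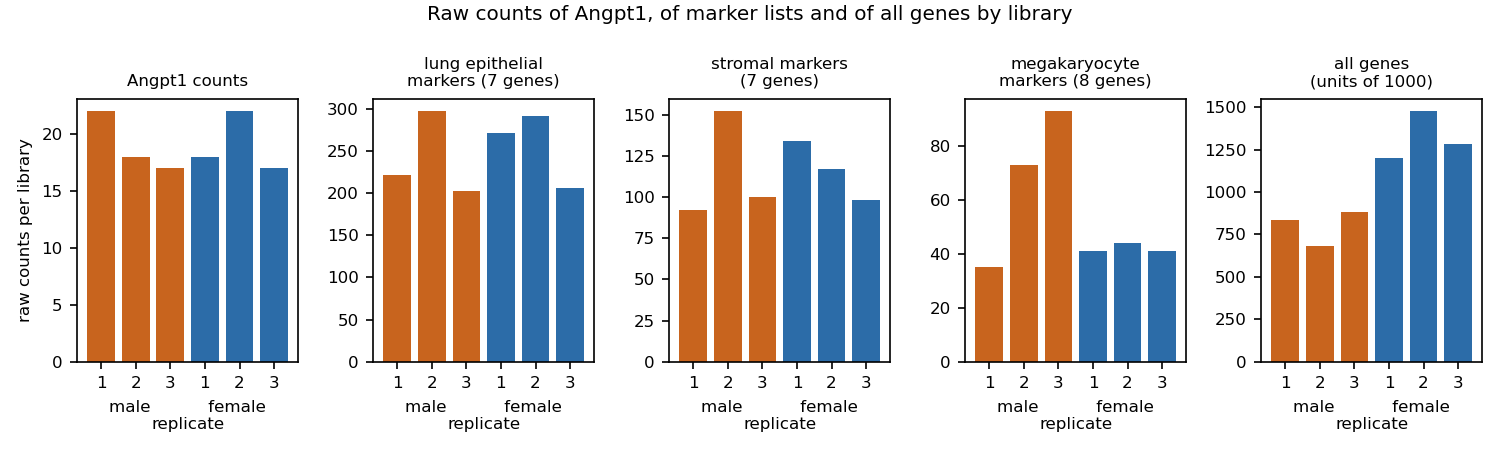
Raw counts per library (vertical axes, from 0) of Angpt1, of 3 marker lists summed over their genes, and of all genes in units of 1000 counts, for male replicates 1 to 3 (orange) and female replicates 1 to 3 (blue). All-gene totals are lower in each male library, while Angpt1 has 17 to 22 counts in males and 17 to 22 in females and the lung list has 202 to 297 and 206 to 292.

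The receptor side of the angiopoietin route could not be tested. Tek had 5 counts in males and 3 in females, and Tie1, its relative, had 11, 6 and 9 counts in males and 3, 13 and 6 in females. Angpt2, the ligand that often opposes angiopoietin 1, had 0 counts in males and 2 in females, both in female replicate 2. All 5 genes of this list with a row stayed under the depth filter.

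Pdgfb and Fgf2 were at the edge of detection. Pdgfb, the factor that recruits pericytes to vessels and that platelets carry (chromosome 15, 79995874 to 80014977, minus strand), had 2, 1 and 0 counts in males and 1, 1 and 0 in females. Fgf2, a heparin-binding growth factor (chromosome 3, 37348346 to 37410108, plus strand), had 0 counts in every male library and 0, 0 and 1 in the female ones. A count of 0 allows a level of up to 3 counts, which is 3.49, 4.99 and 3.62 CPM in male replicates 1 to 3. No fold is given for either gene, since both sexes were at or under 3 counts. Fgf2 overlaps Nudt6 on the other strand over 5199 bases, and Nudt6 had 0 counts in males and 3 in females. Fgfr1, a receptor of FGF2, had 2 counts in males and 5 in females, and 10 of the 12 genes of the FGF list with a row stayed under the filter. The other 2, the heparan sulphate proteoglycan genes Sdc1 and Sdc4, were tested and did not pass (log2 fold changes -0.44 ± 0.26 and 0.31 ± 0.35). Of the 5 PDGF relatives and receptors, Pdgfrb, the receptor of stromal and mural cells, was tested and had 10.99 ± 0.593 CPM in males and 8.45 ± 2.18 CPM in females (log2 fold change 0.36 ± 0.37). Pdgfrb reached the depth filter in all 3 male libraries and in 1 female library, so it entered the test through the males and its sign supports nothing.

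Hgf and Igf1, which act on epithelial and many other cells through MET and IGF1R, were counted but not deep enough to be tested. Hgf (chromosome 5, 16553495 to 16620152, plus strand) had 3, 5 and 4 counts in males and 1, 5 and 9 in females. The female libraries held both the lowest and the highest count, and the male to female ratio of summed counts per scaled library size was 1.40 (95% counting interval 0.5999 to 3.21). Hgf overlaps Gm43489 on the same strand over 993 bases. Gm43489 had 0, 1 and 2 counts in males and 1, 1 and 2 in females. Igf1 (chromosome 10, 87858265 to 87937042, plus strand) had 4, 1 and 0 counts in males and 2, 1 and 1 in females, a ratio of 2.19 with an interval of 0.472 to 11.1. Of the 5 male counts 4 came from replicate 1, and without it the ratio was 0.702. Neither difference was detectable at this depth. In a fit with no depth filter, Hgf, Igf1, Pdgfb and Fgf2 had unadjusted p from 0.335 to 0.480 and an adjusted p of 0.761 by edgeR.

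The receptors of both factors were tested. Met, the receptor of hepatocyte growth factor, had 57, 18 and 37 counts in males and 105, 99 and 88 in females, or 46.97 ± 18.3 CPM in males and 73.1 ± 9.92 CPM in females. Its log2 fold change was -0.58 ± 0.20 (unadjusted p = 0.00792, adjusted p = 0.237 by edgeR). It did not pass with all libraries, and it fell by 0.92 and passed without male replicate 1 (adjusted p = 0.00791 by edgeR), the male library with the most Met counts. Calls were more frequent over all genes without that library, with 337 higher and 78 lower in males in place of 36 and 13, so that 0.868% of tested genes were lower. Spint2, an inhibitor of proteases that activate hepatocyte growth factor, had 64.2 ± 2.53 CPM in males and 55.4 ± 5.97 CPM in females and did not pass. Igfbp4, which binds insulin-like growth factors outside the cell, had 874.5 ± 62.3 CPM in males and 836 ± 29.97 CPM in females (log2 fold change 0.06 ± 0.12). Igf1r, the receptor, had 48.7 ± 3.67 CPM in males and 61.0 ± 7.88 CPM in females (adjusted p = 0.484 by edgeR). Insr, the insulin receptor gene, had 14.4 ± 3.35 CPM in males and 24.9 ± 6.10 CPM in females, an unadjusted p of 0.0160 and an adjusted p of 0.298 by edgeR.

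Tgfb1, the gene of the latent cytokine transforming growth factor beta 1, was counted in every library and did not pass. It lies on chromosome 7 (25687002 to 25705077, plus strand, GRCm38). Counts were 145, 83 and 119 in males and 186, 271 and 219 in females, which is 169, 138 and 143 CPM in males and 149.8, 184 and 168.5 CPM in females. Male replicate 1 lay within the female range and the other male libraries below it. The log2 fold change was -0.15 ± 0.13 (SE; 95% interval -0.42 to 0.11; adjusted p = 0.718 by edgeR). Tgfb2 and Tgfb3, the other members of the family, had 3 and 0 counts in males and 6 and 1 in females.

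Among 11 genes that hold latent TGF-beta or set it free, 3 were tested and 0 passed. Nrros, which anchors the latent cytokine on myeloid cells, had 208 ± 34.5 CPM in males and 247 ± 22.5 CPM in females (log2 fold change -0.23 ± 0.13). Furin, the protease that cuts the precursor, had 40.4 ± 9.09 CPM in males and 48.9 ± 10.2 CPM in females. Of 12 receptors, SMAD proteins and repressors, 9 were tested and 0 passed. Smad4, the shared partner of the signalling SMADs, had 57.6 ± 11.3 CPM in males and 59.4 ± 11.9 CPM in females, and Smad2 had 44.5 ± 5.61 and 40.95 ± 3.63 CPM. Ski, a repressor of SMAD-driven transcription, had 18, 7 and 8 counts in males and 34, 47 and 31 in females. Its log2 fold change was -0.95 ± 0.29 with an adjusted p of 0.195 by edgeR. It passed without male replicate 1, where it fell by 1.40 (adjusted p = 0.0158 by edgeR) and where calls over all genes were more frequent, as given for Met.

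Grn, the gene of progranulin, a secreted and lysosomal growth factor of myeloid cells, had overlapping levels in the sexes and did not pass. It lies on chromosome 11 (102430315 to 102437048, plus strand, GRCm38) and had 265, 149 and 202 counts in males and 339, 402 and 302 in females. Its levels were 309, 248 and 243 CPM in males and 273, 272 and 232 CPM in females. The highest library was male replicate 1 and the lowest female replicate 3. The log2 fold change was 0.04 ± 0.13 (95% interval -0.22 to 0.31; adjusted p = 0.944 by edgeR), and its sign changed in 3 alternatives: when scaling used library size alone, without male replicate 1 and without female replicate 3. Grn overlaps Fam171a2 on the other strand over 68 bases, and Fam171a2 had 0 counts in males and 5 in females.

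All 8 genes that handle progranulin were tested and 0 passed, with fold changes between -0.26 and 0.40. Prtn3 and Elane, granule proteases that cut progranulin into granulins, had 2853 ± 272 and 2088 ± 80.3 CPM in males and 2966 ± 66.8 and 2463 ± 225 CPM in females. Elane had a log2 fold change of -0.24 ± 0.13 and an adjusted p of 0.495 by edgeR, and it reached an unadjusted p under 0.05 by DESeq2 but not by edgeR.

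Hdgf, the gene of hepatoma-derived growth factor, a heparin-binding protein found in the nucleus and outside cells, had the most counts of the 10. It lies on chromosome 3 (87906321 to 87916132, plus strand, GRCm38). Counts were 772, 598 and 771 in males and 1181, 1205 and 1209 in females, or 899, 994.5 and 929 CPM in males and 951, 816 and 930.5 CPM in females. The highest library, male replicate 2, and the lowest, female replicate 2, were of different sex, and the other male libraries lay within the female range. The log2 fold change was 0.06 ± 0.12 (95% interval -0.19 to 0.32; adjusted p = 0.899 by edgeR), and its sign changed when scaling used library size alone. Of its family, Psip1, which encodes a chromatin-binding relative, had 158.5 ± 6.96 CPM in males and 160 ± 18.1 CPM in females. Ncl, the gene of nucleolin, was listed with the family but is not a member of it. Its level was 1635 ± 182 CPM in males and 1799 ± 505 CPM in females. Of the 3 tested genes of this list 0 passed.

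**Figure D4:**
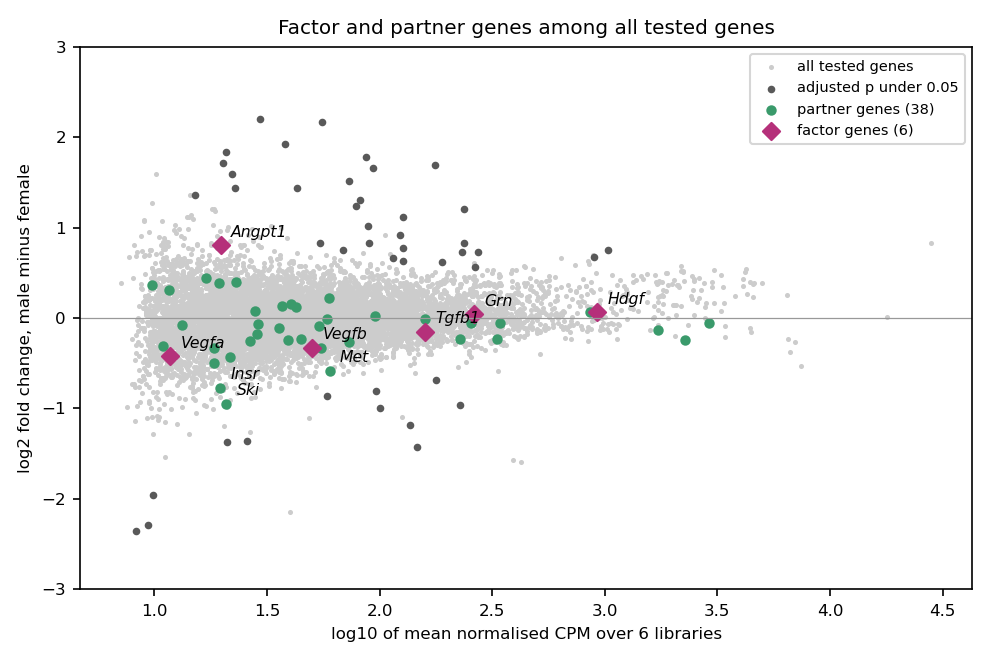
Log2 fold change, male minus female (vertical axis), against the log10 of mean normalised CPM over 6 libraries (horizontal axis) for all tested genes (light grey), genes with adjusted p under 0.05 (dark grey), 38 partner genes (green) and 6 factor genes (diamonds). The 5 genes beyond 3 on the vertical axis, Cxcl2, Ddx3y, Eif2s3y, Uty and Xist, are outside the plot; the factor genes lie between -0.42 and 0.81 and none is dark grey.

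Over all lists, 94 partner genes (receptors, binding proteins, processing enzymes and relatives of the 10 factors) had a row, 38 were tested, and 0 rose and 0 fell in males relative to females by edgeR, DESeq2 or limma-voom after adjustment. The background of such calls was 0.579% of tested genes. At an unadjusted p under 0.05, edgeR reached 3 of the 38, Met, Ski and Insr, all lower in males, where 4.5% of all tested genes were lower in males at that level. These 3 were named after their values were seen, Met aside. The median log2 fold change of the 38 was -0.086, with 12 above 0. Over all 8460 tested genes the median was -0.003, with 4175 above 0. The 56 partner genes that were not tested had between 1 and 63 counts in all libraries together.

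The libraries also showed which genes varied with the most counted factors. Across the 6 libraries, the log2 CPM of Hdgf was most like that of Mpp5, Fam149b and Cct4, with Pearson's r of 0.987, 0.973 and 0.969. That of Grn was most like Reep4, Zfp280d and Poglut2, with r of 0.995, 0.983 and 0.976. Of 8459 genes, 48 had an r above 0.9 with Hdgf and 49 with Grn. These genes were picked as the highest of all those compared over 6 libraries, and all genes of a library share its depth, so the values are a description.

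**Figure D5:**
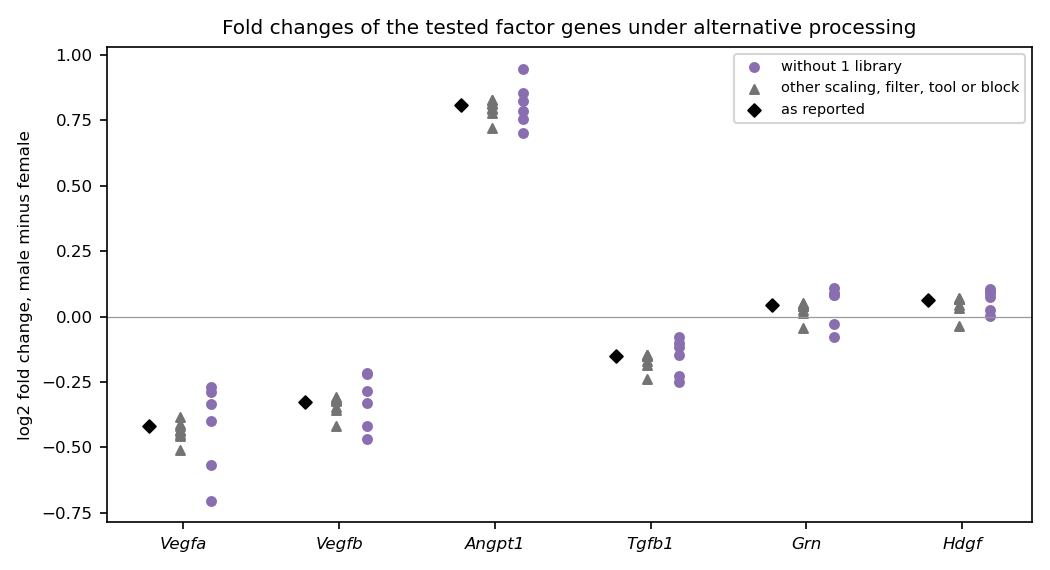
Log2 fold change, male minus female (vertical axis), of the 6 tested factor genes as reported (diamonds), under other scalings, filters, tools or the replicate block (triangles) and with each library left out in turn (circles). Vegfa, Vegfb and Tgfb1 stay below 0 and Angpt1 above 0, between 0.70 and 0.95, while Grn and Hdgf lie on both sides of 0.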

How the data were processed

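Per the labels' protocols, TRIzol and column extraction was followed by BRB-seq, in which oligo-dT primers carry a sample barcode and a molecular identifier and samples are pooled, so that reads lie near transcript 3' ends. Per the submitters' processing notes, the builds GRCm38 and GRCh38 and the tools HISAT2 2.2.1, featureCounts 2.0.1, Trim Galore 0.6.7, UMI-tools and DESeq2 were named, with no role given. The authors deposited raw counts per gene. Collapsing of identifiers and use of strand are not given in the sources used here; PCR copies may be counted, and overlapping genes may share reads.

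Genes were filtered with edgeR 4.0.16 in R 4.3.3 (filterByExpr, minimum count 10, minimum total 15), which left 8460 of 21606 genes. After TMM scaling, males were compared with females by the two-sided quasi-likelihood F test, with no covariate. CPM use the TMM-scaled library sizes over tested genes, and the SE is the fold change over the root of F. Counting intervals are exact 95% binomial intervals and, like the limit of 3 counts at 0, cover counting error only. The edgeR steps were tried on simulated counts with the same spread beyond counting error for every gene. This is simpler than these data, so it does not show how the steps perform on these libraries. Alternatives used other scalings, filters, the replicate block, DESeq2 1.42.0, limma-voom (limma 3.58.1) and libraries left out. Coordinates are those of GENCODE M21 (GRCm38). No 2 libraries were copies: chi-square per degree of freedom was at least 1.89.

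The genes named are the 10 factors, any partner genes past the threshold (there were 0), the 2 tested partner genes of each list with the highest mean level, and the 3 genes most like Hdgf and Grn. Other partner genes and single markers were named after their values were seen. Members and lists were chosen with earlier results of these data known.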

Additional observations from a re-analysis of the deposited data

How the results depend on the processing

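In all 14 alternatives 0 of the tested factor genes passed, and the fold changes of Vegfb, Tgfb1 and Angpt1 kept their direction. So did that of Vegfa, which entered the test through the females, so its sign shows nothing. Grn changed sign with scaling by library size only (-0.043), without male replicate 1 (-0.078) and without female replicate 3 (-0.028), and Hdgf changed sign with scaling by library size only (-0.034). With libraries left out in turn, the log2 fold change ranged from -0.70 to -0.27 for Vegfa, from -0.47 to -0.21 for Vegfb, from -0.25 to -0.076 for Tgfb1, from -0.078 to 0.11 for Grn and from 0.0013 to 0.11 for Hdgf, and the ratio from 1.04 to 2.37 for Hgf and from 0.702 to 3.44 for Igf1. Partner genes called lower in males numbered 0 to 2 with libraries left out, the 2 being Met and Ski, of 43 tested, without male replicate 1, where 0.868% of all tested genes were called lower.

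Over all tested genes, 36 were higher and 13 lower in males. These were 81 and 35 with no filter. With the replicate block they were 56 and 22. Lower calls were 23 with scaling by library size only, 7 by DESeq2 and 8 by limma-voom. With libraries left out they ranged from 19 to 337 higher and from 4 to 78 lower, with 337 and 78 when male replicate 1 was left out, 19 and 4 for male replicate 3, and 8 lower for female replicate 2; the cause was not tested. Scaling by library size only gave a median fold change of all genes of -0.092, against -0.003 with TMM, and a share of calls higher in males of 55.8%, against 73.5%. Libraries with the same replicate number in both sexes deviated from their group means together only weakly (correlations 0.030, 0.034 and 0.048), so the numbers are not taken as pairs, although each library correlated best with its own number. With the block Angpt1 had a log2 fold change of 0.83 (adjusted p = 0.181 by edgeR) and no factor gene passed. Hgf, Igf1, Pdgfb and Fgf2 stayed under the depth filter, and with no filter none of them passed (adjusted p = 0.761 by edgeR).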
